A study of Mus musculus with 4 samples.

Results

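The 32 macrophage and Kupffer cell marker genes described here are 5 markers of liver-resident macrophages (Clec4f, Vsig4, Timd4, Cd5l and Marco) and 27 general macrophage and monocyte markers. They were chosen by gene symbol, with earlier results of these data known, among the 39179 genes measured in 4 libraries of mouse liver tumors, and each symbol was found once. Of these libraries, 2 were from tumors of mice given sorafenib, an oral inhibitor of RAF kinases and of the VEGF and PDGF receptors, and 2 from tumors of mice given carrier. All mice were wild-type C57BL/6 animals whose hepatocytes had received transposons encoding Myc and oncogenic NrasG12V by hydrodynamic injection (genotype label Myc/NrasG12V), and dosing went on for 3 weeks on alternate days in both groups. Because the oncogenes were delivered to hepatocytes of otherwise wild-type mice, the macrophages of these tumors are taken here to be cells without the transposons, which was not tested. The sources used here do not give the age of the mice or the sorafenib dose, nor do they say whether replicates came from separate mice.

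Kupffer cells are the macrophages that live in the sinusoids of the liver, where they clear particles, dying cells and old red cells from portal blood. In mice they are marked by the lectin Clec4f, the complement receptor Vsig4 and the phosphatidylserine receptor Timd4, while macrophages that arise from recruited blood monocytes carry Ccr2 and Cx3cr1 and at first lack these markers. Both kinds depend on the growth factor receptor Csf1r and on the transcription factor PU.1, the product of Spi1, and both carry general markers such as F4/80 (Adgre1), Cd68 and the C1q chains.

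Expression was deposited as CPM, reads per 1000000 counted reads. Depth was 4067427 and 5246530 reads in the sorafenib libraries, and 5932939 and 5300806 reads in the carrier libraries, so that the value of 3 reads, the most that a count of 0 allows, lay at 0.738 and 0.572 CPM in sorafenib and 0.506 and 0.566 CPM in carrier libraries. The tissue label was checked with albumin, the main product of hepatocytes. Alb was at 79607 and 71696 CPM in sorafenib tumors, against 91592 and 107514 CPM in carrier tumors. Sorafenib replicate 2 stood apart from the other 3 libraries. H19, an oncofetal transcript, was at 7796 and 39.8 CPM in sorafenib replicates 1 and 2, against 19533 and 19388 CPM in the carrier replicates, and the fetal liver protein Afp was at 1608 and 9.53 CPM in sorafenib tumors, against 5276 and 2790 CPM in carrier tumors. Results are therefore given for each sorafenib library as well as for the group.

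Macrophage markers took a smaller share of the reads in sorafenib than in carrier tumors. Summed over the 32 genes, their level was 499.8 CPM in sorafenib replicate 1 (Wilson 95% interval 478.6 to 522.0) and 183.9 CPM in sorafenib replicate 2 (172.7 to 195.9), against 859.4 CPM (836.2 to 883.3) and 855.5 CPM (831.0 to 880.8) in carrier replicates 1 and 2. These intervals cover counting error only. The sorafenib sums were thus 58.3% and 21.5% of the carrier mean, while the carrier libraries differed from each other by less than their intervals. In bulk tumor RNA, fewer macrophages and less of these transcripts per macrophage cannot be told apart. Of the 32 markers, 30 passed the filter of at least 1 CPM in at least 2 libraries; Ms4a7 and Cx3cr1 did not. All 30 had a negative log2 fold change, computed from log2(CPM + 1) as the sorafenib mean minus the carrier mean; the added 1 makes it too small for genes with low levels.

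Both sorafenib libraries were below both carrier libraries for 22 of the 30 tested markers, or 73.3%, where the same was true of 41.3% of all 13149 tested genes. None of the markers was above both carrier libraries, against 17.5% of all tested genes that were. The median log2 fold change was −1.31 over the 30 markers and −0.26 over all tested genes. With TMM factors, which moved the median of all genes to −0.04, the markers had a median of −1.09 and 22 of them were again below both carrier libraries, against 29.2% of all genes below and 27.2% above both. By library, sorafenib replicate 1 was below both carriers for 22 markers (73.3%, background 47.1%) and above both for 4 (background 29%). Sorafenib replicate 2 was below both for all 30 (100%, background 62.4%) and above both for 0 (background 25.1%).

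No single marker passed the threshold of the main test. With limma and Benjamini-Hochberg adjustment over all 13149 genes, 0 of the 30 markers had an adjusted p under 0.05, the smallest being 0.24, and the background was the same, with 0 percent of all genes called in either direction. At an unadjusted p under 0.05, 18 of the 30 markers (60%) were lower, and 0 were higher, against 12.9% of all tested genes that were lower and 6.36% that were higher. edgeR's quasi-likelihood test on the recovered reads also called 0 markers and 0 of all genes, and 18 markers had an unadjusted p under 0.05. Over all 13149 genes, that edgeR p was under 0.05 for 876 lower and 1395 higher genes. DESeq2 called 3 markers, all lower (C1qc, Csf1r and Gpnmb), of which Gpnmb passed the filter only through the carrier libraries and could only appear lower, on a background of 0.38% of genes called lower and 3.41% called higher. DESeq2 gave no adjusted p for 1530 of the 13149 genes, Trem2 among them, and these shares count such genes as not called. The limma calls depended on which sorafenib library was used. Without sorafenib replicate 1, limma called 26 markers, all lower, and without sorafenib replicate 2 it called 13, all lower. The background was 29.8% of all genes called lower and 9.34% called higher without replicate 1, and 1.27% lower and 1.76% higher without replicate 2. In both of these fits the lone sorafenib library is assumed to vary like the carrier libraries.

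**Figure D1:**
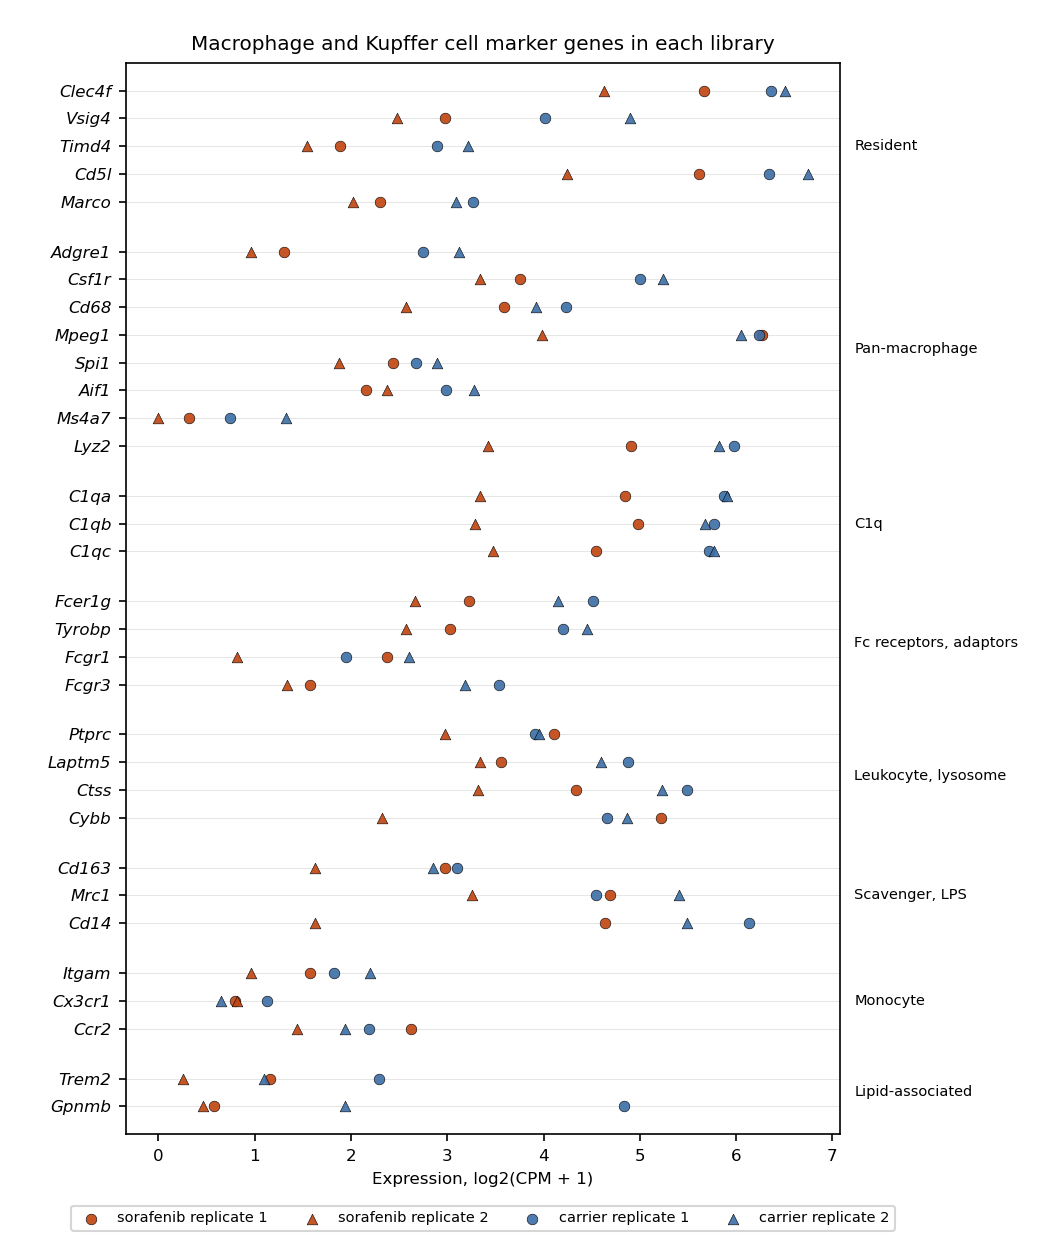
Expression of the 32 markers as log2(CPM + 1) in each library, grouped by role, with orange symbols for sorafenib and blue symbols for carrier, circles for replicate 1 and triangles for replicate 2. Orange symbols lie left of both blue symbols in 22 of the 30 tested markers, and the orange triangle lies furthest left in most rows.

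The resident markers were lower in both sorafenib libraries without exception. Clec4f, a galactose-binding lectin made by Kupffer cells and by few other cells (ENSMUSG00000014542, chr6:83644542-83656187, GRCm38), was at 49.9 and 23.6 CPM in sorafenib tumors, against 81.1 and 89.8 CPM in carrier tumors. The means were 36.8 ± 18.6 CPM in sorafenib and 85.4 ± 6.17 CPM in carrier tumors (SD, n = 2 each), and the log2 fold change was −1.29 (SE 0.37). The higher sorafenib value stayed below the lower carrier value. Cd5l, a secreted scavenger protein of macrophages (ENSMUSG00000015854, chr3:87357881-87371073), was at 47.9 and 17.9 CPM in sorafenib tumors, against 80.1 and 106 CPM in carrier tumors. The log2 fold change of Cd5l was −1.61 (SE 0.46). For both genes the gap between the sorafenib replicates was wider than that between the carrier replicates.

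Vsig4, a receptor through which Kupffer cells take up particles coated with complement C3 (ENSMUSG00000044206, chrX:96247203-96293438), was at 6.88 and 4.57 CPM in sorafenib tumors, against 15.2 and 28.9 CPM in carrier tumors. Its log2 fold change of −1.73 (SE 0.42) was the most negative of the 5 resident markers. Timd4, which binds phosphatidylserine on dying cells (ENSMUSG00000055546, chr11:46810800-46844332), was at 2.70 and 1.91 CPM in sorafenib tumors, from 11 and 10 reads, against 6.40 and 8.30 CPM in carrier tumors, from 38 and 44 reads. The log2 fold change was −1.34 (SE 0.37). Marco, a scavenger receptor for bacteria and particles (ENSMUSG00000026390, chr1:120474538-120505024), was at 3.93 and 3.05 CPM in sorafenib tumors, against 8.60 and 7.55 CPM in carrier tumors. This gave Marco a log2 fold change of −1.02 (SE 0.36). For these 3 genes, too, the groups did not overlap. The limma adjusted p was 0.24 for Clec4f, Vsig4, Timd4 and Cd5l and 0.25 for Marco. All 5 stayed below both carriers with TMM factors (background 29.2%).

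The promoters of the resident markers and of the C1q chain genes C1qb and C1qc are shown because all of these genes were below both carriers, and because PU.1, the factor that macrophages depend on, binds sites with the core letters GAGGAA. Sequences are RefSeq promoters on GRCm38.p6, 5′ to 3′ on the strand of the gene, from 250 bases before to 50 bases after the start. Capitals mark GAGGAA or its reverse complement TTCCTC, and in C1qc the longer ACTTCCTC, the reverse complement of GAGGAAGT.
Clec4f, chr6:83656067-83656366, minus strand: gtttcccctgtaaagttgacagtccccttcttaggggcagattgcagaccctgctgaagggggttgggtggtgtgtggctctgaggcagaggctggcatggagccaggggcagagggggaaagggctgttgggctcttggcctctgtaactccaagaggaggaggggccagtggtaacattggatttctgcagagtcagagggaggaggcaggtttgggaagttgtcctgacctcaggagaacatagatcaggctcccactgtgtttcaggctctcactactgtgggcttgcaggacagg
Vsig4, chrX:96293389-96293688, minus strand: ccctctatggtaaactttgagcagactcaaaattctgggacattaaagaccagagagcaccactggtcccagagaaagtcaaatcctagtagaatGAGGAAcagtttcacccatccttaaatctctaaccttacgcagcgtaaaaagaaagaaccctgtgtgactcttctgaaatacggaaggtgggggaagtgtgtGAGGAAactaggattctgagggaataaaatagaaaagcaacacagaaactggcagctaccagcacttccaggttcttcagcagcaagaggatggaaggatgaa
Timd4, chr11:46810549-46810848, plus strand: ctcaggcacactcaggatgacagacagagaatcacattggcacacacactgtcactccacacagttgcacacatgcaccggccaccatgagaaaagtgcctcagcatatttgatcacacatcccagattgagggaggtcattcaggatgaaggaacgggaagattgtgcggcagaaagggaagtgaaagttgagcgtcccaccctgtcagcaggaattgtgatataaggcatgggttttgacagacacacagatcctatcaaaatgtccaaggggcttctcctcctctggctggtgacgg
Cd5l, chr3:87357631-87357930, plus strand: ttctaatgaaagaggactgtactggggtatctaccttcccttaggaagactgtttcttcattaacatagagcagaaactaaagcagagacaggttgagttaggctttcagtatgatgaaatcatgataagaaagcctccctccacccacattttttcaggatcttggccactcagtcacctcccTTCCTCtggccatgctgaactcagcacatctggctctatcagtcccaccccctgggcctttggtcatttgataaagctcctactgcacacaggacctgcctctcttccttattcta
Marco, chr1:120504975-120505274, minus strand: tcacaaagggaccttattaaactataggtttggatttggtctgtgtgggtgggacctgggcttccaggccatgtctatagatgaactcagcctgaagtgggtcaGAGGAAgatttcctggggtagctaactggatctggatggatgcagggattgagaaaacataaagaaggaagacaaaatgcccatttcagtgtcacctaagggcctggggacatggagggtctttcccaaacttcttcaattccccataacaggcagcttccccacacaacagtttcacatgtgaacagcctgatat
C1qb, chr4:136886151-136886450, minus strand: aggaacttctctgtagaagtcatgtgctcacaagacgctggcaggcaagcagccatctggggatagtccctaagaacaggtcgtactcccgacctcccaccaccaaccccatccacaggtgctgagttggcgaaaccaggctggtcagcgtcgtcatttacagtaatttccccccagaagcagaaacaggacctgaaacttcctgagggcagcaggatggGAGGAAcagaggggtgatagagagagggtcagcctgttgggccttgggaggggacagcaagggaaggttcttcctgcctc
C1qc, chr4:136892865-136893164, minus strand: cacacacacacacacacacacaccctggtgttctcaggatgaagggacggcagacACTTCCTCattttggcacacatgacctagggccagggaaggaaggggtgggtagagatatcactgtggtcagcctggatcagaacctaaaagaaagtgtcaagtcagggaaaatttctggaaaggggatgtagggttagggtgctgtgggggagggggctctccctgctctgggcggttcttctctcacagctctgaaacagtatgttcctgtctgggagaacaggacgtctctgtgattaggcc
Within these windows, Vsig4 held 2 matches on the gene's own strand, Marco and C1qb held 1 each on the gene's own strand, and Cd5l and C1qc held 1 each on the opposite strand. Clec4f and Timd4 held none, which says only that these letters are not in these windows. Promoters were matched for 26 of the 32 markers (29 windows). Of the 29 windows, 18, or 62.1%, held GAGGAA on either strand, against 28.3% of all 32851 promoters of the same length. Counted by gene, 17 of the 26 held GAGGAA. The windows are not all independent, since the 2 windows of Fcgr3 overlap and hold the same match. The longer GAGGAAGT, which contains GAGGAA, was in 2 of 29 (6.90%; Ctss and C1qc), against 3.20% of all promoters. A match is a description of the letters and not a measured binding site. Adgre1, Csf1r, Spi1, C1qa, Tyrobp and Cd14 were not matched.

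Among the general markers of all macrophages, 6 of the 7 tested were below both carrier libraries (background 41.3%). The median log2 fold change of the 7 was −1.02. Csf1r, the receptor for the growth factors Csf1 and Il34 on which macrophages depend (ENSMUSG00000024621), was at 12.5 and 9.15 CPM in sorafenib tumors, against 31.0 and 36.8 CPM in carrier tumors. On the log2 scale the fold change was −1.57 (SE 0.30; limma adjusted p 0.24, DESeq2 adjusted p 0.0285). The group means were 10.8 ± 2.40 CPM in sorafenib and 33.9 ± 4.08 CPM in carrier tumors (SD, n = 2 each), more than the replicate spread apart. Exons of Csf1r overlap those of Hmgxb3 on the other strand, and the strand setting of the counting is not given, so part of its value could belong to Hmgxb3.

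Adgre1, which encodes F4/80 (ENSMUSG00000004730, chr17:57358691-57483527), was at 1.48 and 0.953 CPM in sorafenib tumors, from 6 and 5 reads, against 5.73 and 7.73 CPM in carrier tumors, from 34 and 41 reads. The fitted log2 fold change was −1.80 (SE 0.38; limma adjusted p 0.24). The sorafenib values lay just above the value of 3 reads, so the size of the difference is known only roughly. Lyz2, the lysozyme of macrophages and neutrophils, was at 29.0 and 9.72 CPM in sorafenib tumors, against 62.2 and 55.7 CPM in carrier tumors; it has a close paralog, Lyz1, between which reads could be split. Cd68, a lysosomal membrane protein, was at 11.1 and 4.96 CPM in sorafenib tumors, against 17.9 and 14.1 CPM in carrier tumors. Both genes were lower in sorafenib replicate 2 than in replicate 1.

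Spi1, the gene of PU.1, was at 4.43 and 2.67 CPM in sorafenib tumors, against 5.39 and 6.41 CPM in carrier tumors, a log2 fold change of −0.63 (SE 0.39). Aif1, the actin-binding protein Iba1, was at 3.44 and 4.19 CPM in sorafenib tumors, against 6.91 and 8.68 CPM in carrier tumors. It was the only tested marker whose value in sorafenib replicate 2 was not below that in replicate 1. Mpeg1, a pore-forming protein of phagosomes, was at 76.2 and 14.9 CPM in sorafenib tumors, against 74.5 and 65.3 CPM in carrier tumors. Here replicate 1 lay above both carriers and replicate 2 far below them, so the log2 fold change of −1.01 (SE 0.69) rested on replicate 2 alone. Ms4a7, a membrane protein of macrophages, had 1 and 0 reads in sorafenib tumors and 4 and 8 reads in carrier tumors, and was too low to test.

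The C1q chains, which macrophages make for the first component of complement, were all below both carriers in both sorafenib libraries (background 41.3%). Their median log2 fold change was −1.74. C1qc (ENSMUSG00000036896, chr4:136889804-136893065) was at 22.4 and 10.1 CPM in sorafenib tumors, against 51.7 and 53.8 CPM in carrier tumors. Its log2 fold change was −1.74 (SE 0.39; limma adjusted p 0.24, DESeq2 adjusted p 0.0205). C1qa was at 27.8 and 9.15 CPM in sorafenib tumors, against 57.6 and 59.0 CPM in carrier tumors. C1qb was at 30.5 and 8.77 CPM in sorafenib tumors, against 53.4 and 49.99 CPM in carrier tumors. For each chain the carrier replicates lay far closer to each other than to either sorafenib replicate.

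Per length of exon, the chains stayed near each other in every library. On the scale of CPM per kb of exon, C1qa made up 36.4% and 34.8% of the 3-chain sum in sorafenib tumors and 37.6% and 38.5% in carrier tumors. C1qb made up 38.2% and 31.9% in sorafenib and 33.3% and 31.2% in carrier tumors, and C1qc 25.4% and 33.3% in sorafenib and 29.2% and 30.3% in carrier tumors. The mean levels were 17.8 CPM per kb for C1qa, 18.0 for C1qb and 13.5 for C1qc in sorafenib tumors, against 56.1, 47.5 and 43.9 CPM per kb for the same chains in carrier tumors. C1qa and C1qb had the highest levels per kb of all 32 markers in both groups. Cd5l followed in both, at 16.2 CPM per kb in sorafenib and 45.7 CPM per kb in carrier tumors.

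Of the 4 Fc receptor and adaptor genes, 3 were below both carriers (background 41.3%), and the median log2 fold change of the 4 was −1.46. Fcgr3, a low-affinity IgG receptor (ENSMUSG00000059498, chr1:171051174-171064935), was at 1.97 and 1.52 CPM in sorafenib tumors, from 8 and 8 reads, against 10.6 and 8.11 CPM in carrier tumors, from 63 and 43 reads. Its log2 fold change was −1.91 (SE 0.37; limma adjusted p 0.24). Tyrobp, the adaptor DAP12 that passes on the signals of Trem2 and other receptors (ENSMUSG00000030579, chr7:30413760-30417585), was at 7.13 and 4.96 CPM in sorafenib tumors, against 17.4 and 20.9 CPM in carrier tumors. For Tyrobp the log2 fold change was −1.53 (SE 0.34; limma adjusted p 0.24). For both genes the replicates of each group lay closer to each other than to the other group.

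Fcer1g, the signalling chain shared by Fc receptors, was at 8.36 and 5.34 CPM in sorafenib tumors, against 21.9 and 16.8 CPM in carrier tumors. Fcgr1, the high-affinity IgG receptor CD64, was at 4.18 and 0.762 CPM in sorafenib tumors, against 2.87 and 5.09 CPM in carrier tumors. Replicate 1 of Fcgr1 lay between the carriers, and its replicate 2 rested on few reads, so that the groups overlapped.

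Of the 4 leukocyte and lysosome genes, 2 were below both carriers and 2 overlapped, near the background of 41.3% below both. Laptm5, a lysosomal membrane protein of blood cells (ENSMUSG00000028581, chr4:130913125-130936141), was at 10.8 and 9.15 CPM in sorafenib tumors, against 28.3 and 23.2 CPM in carrier tumors. This put the log2 fold change of Laptm5 at −1.28 (SE 0.30; limma adjusted p 0.24). Ctss, the protease cathepsin S of antigen-presenting cells, was at 19.2 and 8.96 CPM in sorafenib tumors, against 43.8 and 36.6 CPM in carrier tumors. Neither gene overlapped between the groups.

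Ptprc and Cybb did overlap. Ptprc, the leukocyte antigen CD45, was at 16.2 and 6.86 CPM in sorafenib tumors, against 14.0 and 14.5 CPM in carrier tumors, a log2 fold change of −0.39 (SE 0.44). Cybb, the catalytic subunit of the phagocyte NADPH oxidase, was at 36.4 and 4.0 CPM in sorafenib tumors, against 24.3 and 28.1 CPM in carrier tumors, a log2 fold change of −0.99 (SE 0.87). In sorafenib replicate 1 both genes lay above both carriers, and in replicate 2 both lay below them.

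Because CD45 is carried by all leukocytes, the CPM of macrophage genes was also divided by that of Ptprc within each library, a ratio that library scaling does not touch; these ratios were chosen after the values had been seen. The CPM ratio of Csf1r to Ptprc was 0.773 and 1.33 in sorafenib tumors, against 2.22 and 2.53 in carrier tumors. For C1qa the ratio was 1.71 and 1.33 in sorafenib tumors, against 4.12 and 4.06 in carrier tumors. For Clec4f it was 3.08 and 3.44 in sorafenib tumors, against 5.80 and 6.18 in carrier tumors. Both sorafenib libraries had lower values of these 3 ratios than either carrier library. In replicate 1 this follows from values already given, since Ptprc lay above both carriers and these 3 genes below both. Not all macrophage genes were low beside Ptprc there, since Mpeg1, Cybb and Ccr2 also lay above both carriers in replicate 1. With 2 libraries against 2, the smallest two-sided p that an exact permutation test allows is 0.333, and no test of the ratios is given.

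The scavenger and lipopolysaccharide receptors were less uniform. Cd14, the co-receptor for lipopolysaccharide, was at 23.8 and 2.10 CPM in sorafenib tumors, against 69.1 and 44.0 CPM in carrier tumors, a log2 fold change of −2.68 (SE 0.91). Both sorafenib values were below both carriers but far from each other. Cd163, the receptor for hemoglobin bound to haptoglobin, was at 6.88 and 2.10 CPM in sorafenib tumors, against 7.58 and 6.23 CPM in carrier tumors. Mrc1, the mannose receptor CD206, which liver sinusoidal endothelial cells also make, was at 24.8 and 8.58 CPM in sorafenib tumors, against 22.4 and 41.5 CPM in carrier tumors. For Cd163 and Mrc1, sorafenib replicate 1 lay between the carrier replicates and replicate 2 below them.

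Markers of recruited monocytes were low in every library. Ccr2, the chemokine receptor that brings monocytes out of the bone marrow, was at 5.16 and 1.72 CPM in sorafenib tumors, against 3.54 and 2.83 CPM in carrier tumors. Its log2 fold change of −0.03 (SE 0.49) was the nearest to 0 of the 30 and turned positive with TMM factors, at 0.15. Itgam, the integrin chain CD11b, was at 1.97 and 0.953 CPM in sorafenib tumors, against 2.53 and 3.58 CPM in carrier tumors. Cx3cr1, the fractalkine receptor, had 3 and 4 reads in sorafenib tumors and 7 and 3 reads in carrier tumors, and no difference was detectable at this depth.

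Gpnmb and Trem2 mark macrophages loaded with lipid. Gpnmb, a transmembrane glycoprotein, had 2 and 2 reads in sorafenib tumors (0.492 and 0.381 CPM), against 164 and 15 reads in carrier tumors (27.6 and 2.83 CPM). The 2 sorafenib libraries together were at 1.55% of the CPM of carrier replicate 1 (exact 95% interval 0.418 to 4.05) and at 15.2% of that of carrier replicate 2 (3.67 to 47.6). These intervals cover counting error only, and the carrier replicates themselves differed widely from each other. Gpnmb passed the filter only through the carrier libraries, so it could only appear lower. Without it, 21 of 29 markers (72.4%) were below both carriers, and 17 had an unadjusted limma p under 0.05. Of the 29, DESeq2 called 2, limma without sorafenib replicate 1 called 25, and limma without sorafenib replicate 2 called 12. Trem2, a lipid-sensing receptor that signals through Tyrobp, was at 1.23 and 0.191 CPM in sorafenib tumors, against 3.88 and 1.13 CPM in carrier tumors, and the groups overlapped. DESeq2 gave Trem2 no adjusted p, so it could not call this gene.

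**Figure D2:**
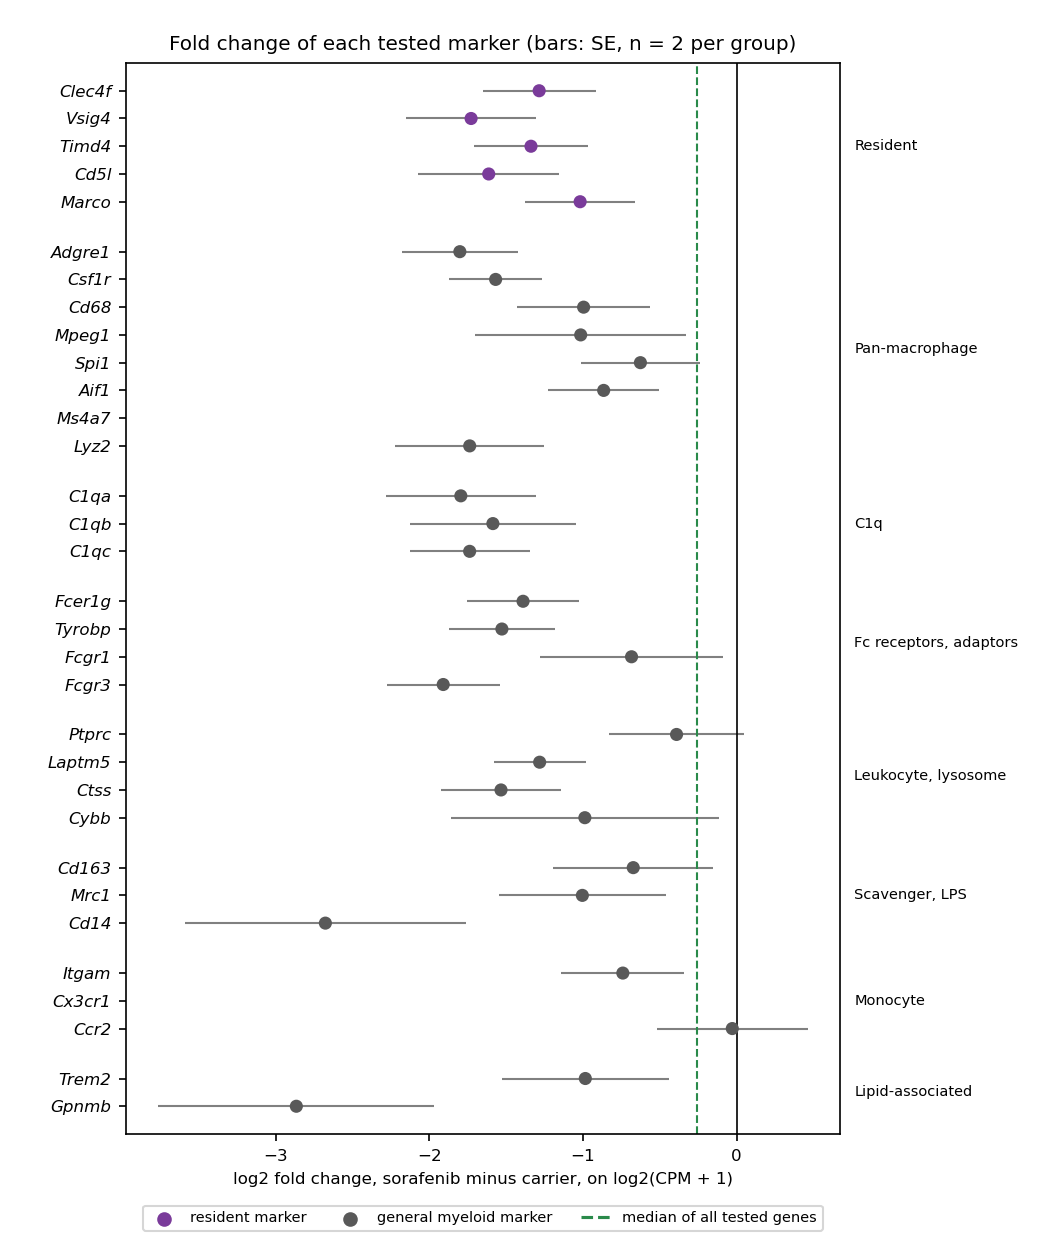
Log2 fold change of each tested marker, sorafenib minus carrier on log2(CPM + 1), with bars of 1 SE from limma (n = 2 per group); purple points are resident and grey points general markers, and the dashed line is the median of all tested genes at −0.26. All 30 points lie left of 0, from −0.03 for Ccr2 to −2.87 for Gpnmb, and Ms4a7 and Cx3cr1 have no point because they were not tested.

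Resident and general markers differed little in their medians. The median log2 fold change was −1.34 over the 5 resident markers and −1.28 over the 25 tested general markers, a difference of −0.06. In sorafenib replicate 1 the resident median was −0.93 and the general median −0.98, and in replicate 2 the resident median was −1.81 and the general median −1.75. All 5 resident markers were below both carriers, against 17 of the 25 general markers, with a background of 41.3% for both counts. The resident markers supplied 22.3% (20.5 to 24.1) and 27.8% (25.0 to 30.7) of all marker reads in sorafenib tumors, against 22.3% (21.1 to 23.4) and 28.1% (26.8 to 29.4) in carrier tumors, with Wilson 95% intervals. The mean shares were 25.0 ± 3.88% in sorafenib and 25.2 ± 4.14% in carrier tumors (SD, n = 2 each), a difference far smaller than the spread between replicates. The spread is wide with 2 libraries a group, and a difference of a few percentage points in either direction would not have been detectable.

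Single pairs of markers did not all keep this balance. The CPM ratio of Clec4f to Adgre1 was 33.8 and 24.8 in sorafenib tumors, against 14.1 and 11.6 in carrier tumors, with few Adgre1 reads behind the sorafenib values. That of Cd5l to Csf1r was 3.82 and 1.96 in sorafenib tumors, against 2.58 and 2.88 in carrier tumors, so that the groups overlapped. These pairs were chosen after the values had been seen and have no test.

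The markers were lower in sorafenib replicate 2 than in replicate 1 almost throughout. Relative to the carrier mean, sorafenib replicate 1 was lower for 24 of the 30 tested markers and sorafenib replicate 2 for all 30, and 29 of the 30 were lower in replicate 2 than in replicate 1. The median difference over the 30 markers was −0.95 in replicate 1 and −1.76 in replicate 2, where the medians of all tested genes were −0.10 and −0.40. The 4 markers that lay above both carriers in replicate 1 were Mpeg1, Ptprc, Cybb and Ccr2, and another 4 (Fcgr1, Cd163, Mrc1 and Trem2) lay between them. In replicate 2, each of these 8 was below both carriers.

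**Figure D3:**
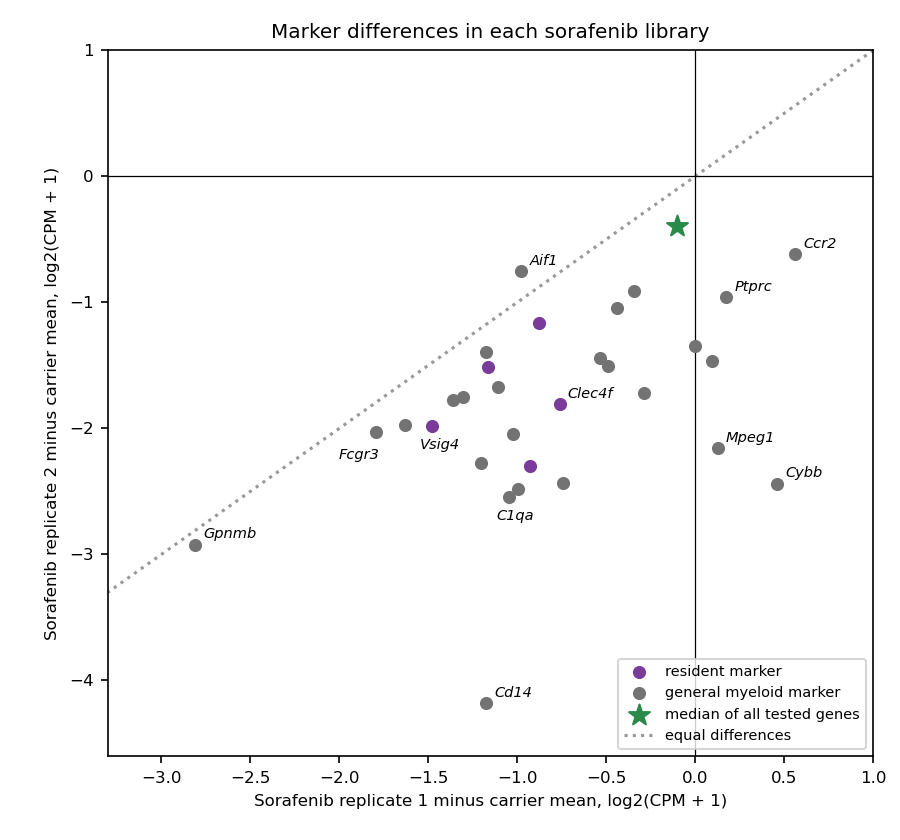
Difference of each tested marker from the carrier mean on log2(CPM + 1) in sorafenib replicate 1 (horizontal) and sorafenib replicate 2 (vertical); the dotted line marks equal differences and the star the median of all tested genes. Every point but Aif1 lies below the dotted line. Mpeg1, Ptprc, Cybb, Ccr2, Fcgr1 and Cd163 lie right of 0 with replicate 2 below 0, Fcgr1 at 0.094 and Cd163 at 0.0015 on the horizontal axis.

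Genes that work with these markers were counted in the same way, against the same background of 41.3% of tested genes below both carriers and 17.5% above both; limma called 0 genes in each of these lists. Of 9 tested genes for macrophage growth factors and chemokines, 5 were below both carriers and 0 above both. Among the 5, Ccl24 passed the filter only through the carrier libraries and could only appear lower; without it the count was 4 of 8. Cxcl10, a chemokine induced by interferon, was at 4.67 and 2.48 CPM in sorafenib tumors, against 12 and 14.7 CPM in carrier tumors, and Cx3cl1, the ligand of Cx3cr1, was at 0.492 and 1.14 CPM in sorafenib tumors, against 3.54 and 3.40 CPM in carrier tumors. The ligands of Csf1r, named here after their values were seen, did not share this pattern. Csf1 was at 15.0 and 14.3 CPM in sorafenib tumors, against 19 and 11.3 CPM in carrier tumors, and Il34 at 1.72 and 3.43 CPM in sorafenib tumors, against 2.02 and 1.70 CPM in carrier tumors, so that both overlapped between the groups. Csf2, the granulocyte and macrophage growth factor, had no read in any library.

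Of the 8 other Kupffer cell genes, 6 were below both carriers and 0 above both, with a median log2 fold change of −0.74. The fold change was negative for 6 and positive for 2. Their summed level was 244 and 233 CPM in sorafenib tumors, against 232 and 313 CPM in carrier tumors, so the sums overlapped between the groups. Folr2, a folate receptor of resident macrophages, was at 3.93 and 1.52 CPM in sorafenib tumors, against 11.8 and 14.3 CPM in carrier tumors. Fcna, the lectin ficolin A, was at 10.3 and 8.96 CPM in sorafenib tumors, against 20.1 and 30.0 CPM in carrier tumors. Both were outside the spread between replicates, with limma adjusted p of 0.24 each.

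Of 9 other genes of lipid-loaded macrophages, 7 were below both carriers, with a median of −1.31. Mmp12, an elastase of macrophages, was at 0.738 and 0.381 CPM in sorafenib tumors, against 20.2 and 7.17 CPM in carrier tumors. It passed the filter only through the carrier libraries, so it could only appear lower; without it, 6 of 8 were below both carriers, with a median of −1.27. Lgals3, the lectin galectin-3, was at 5.16 and 2.48 CPM in sorafenib tumors, against 29.7 and 20.4 CPM in carrier tumors. Of 16 lysosomal genes, which all cells use, 10 were below both carriers and 4 above both, with a median of −0.32 near that of all genes. With TMM factors the background was 29.2% of tested genes below and 27.2% above both carriers. On that scale the lysosomal genes were split at 5 below and 5 above both. The other Kupffer cell genes had 4 below and the lipid-loaded macrophage genes 5 below, with 0 above in either list. Lgmn, the protease legumain, was at 101 and 23.8 CPM in sorafenib tumors, against 224 and 207 CPM in carrier tumors, and Ctsd, cathepsin D, was at 413 and 237 CPM in sorafenib tumors, against 541 and 552 CPM in carrier tumors.

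The 14 transcription factors of macrophages were mixed, with 5 below and 2 above both carriers, or 4 of 13 below without 1 gene that passed the filter only through the carrier libraries. Among those above was Cebpb, which hepatocytes also express, at 144 and 151 CPM in sorafenib tumors, against 75.0 and 69.0 CPM in carrier tumors, with a limma adjusted p of 0.24. Of 19 tested genes of leukocyte signalling, 14 were below and 1 above both carriers, with a median of −0.78. With TMM factors 13 were below and 2 above, against a background of 29.2% below and 27.2% above both. Without 1 gene that passed the filter only through the carrier libraries, 13 of 18 were below both on CPM. Cd53, a tetraspanin of leukocytes, was at 7.13 and 3.81 CPM in sorafenib tumors, against 14.2 and 13.4 CPM in carrier tumors. Of 7 genes of MHC class II, which macrophages, B cells and dendritic cells use to present antigen, 6 were below both carriers, with a median of −1.0. Cd74, the invariant chain, was at 52.1 and 32 CPM in sorafenib tumors, against 126 and 93.8 CPM in carrier tumors.

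Markers of other cell types were read in the same libraries, to set their levels beside those of the macrophage markers. For all of these lists the background was 41.3% of tested genes below both carriers and 17.5% above both. The 12 endothelial markers summed to 85.0% and 35.7% of the carrier mean in the sorafenib replicates, against 89.2% and 111% in the carrier replicates, and 7 of the 12 were below both carriers. The 10 stellate and matrix markers summed to 56.2% and 44.4% in sorafenib, against 79.2% and 121% in carrier tumors, with 7 below and 1 above both carriers. The 6 monocyte markers summed to 75.4% and 30.4% in sorafenib, against 99.1% and 101% in carrier tumors, and the 12 neutrophil markers to 75.1% and 19.4% in sorafenib, against 105% and 95.5% in carrier tumors; only 3 genes of each were high enough to test, 2 of them below both carriers, and the neutrophil marker Ly6g had no read in any library. The 14 T and NK cell markers summed to 70.7% and 70.6% in sorafenib, against 108% and 92.1% in carrier tumors. Of their 9 tested genes, 4 were below both, or 3 of 8 without 1 gene that passed the filter only through the carrier libraries. Both counts lay near the background of 41.3%.

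The 8 dendritic cell markers summed to 96.3% and 96.8% in the sorafenib replicates, against 90.5% and 110% in the carrier replicates, and the 9 B and plasma cell markers to 179% and 116% in sorafenib, against 119% and 81.0% in carrier tumors. Of 4 tested dendritic genes, 0 were below and 1 above both carriers, and of 6 tested B and plasma cell genes, 0 were below and 2 above. The shares over all tested genes were 41.3% below and 17.5% above. Neither list was thus low, but both rest on few genes with low levels. The dendritic sum was 13.3 and 13.3 CPM in sorafenib tumors, against 12.5 and 15.1 CPM in carrier tumors. The 5 erythroid genes summed to 75.7% and 17.5% in sorafenib, against 112% and 88.3% in carrier tumors. The 7 biliary markers summed to 49.8% and 11.6% in sorafenib, against 83.8% and 116% in carrier tumors, but only 1 of 6 tested genes was below both carriers and 0 above both, with a median log2 fold change of −0.13. That sum was mostly Tspan8, at 98.3 and 0.572 CPM in sorafenib tumors, against 184 and 247 CPM in carrier tumors; the other 6 biliary markers summed to 22.4 and 27.4 CPM in sorafenib tumors, against 19.4 and 34.5 CPM in carrier tumors. The 12 hepatocyte markers summed to 89.5% and 83.3% in sorafenib, against 94.5% and 105% in carrier tumors, yet 8 of the 12 were above both carriers, since Alb dominates the sum. The 8 oncofetal markers summed to 42.7% and 0.253% in sorafenib, against 107% and 92.8% in carrier tumors, and all 8 were below both carriers, or 7 of 7 without 1 gene that passed the filter only through the carrier libraries. The macrophage markers summed to 58.3% and 21.5% in the sorafenib replicates, so sorafenib replicate 2 was the lowest library for most of these lists as well. The part of these other cell types and of tumor content in the macrophage result was not tested.

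**Figure D4:**
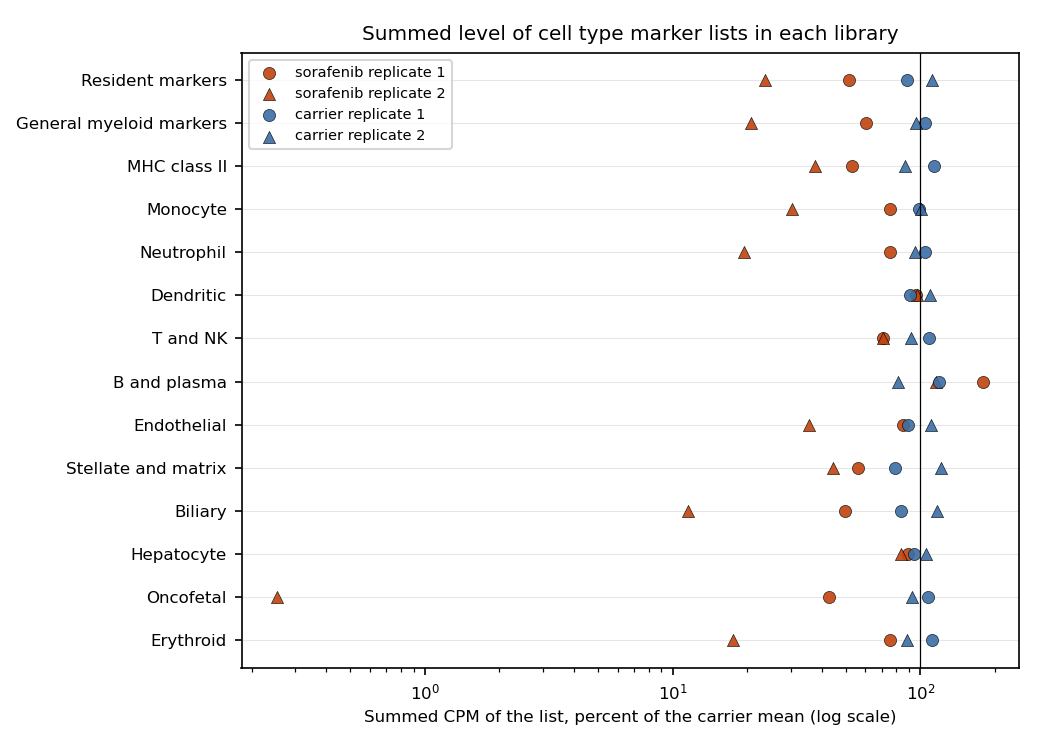
Summed CPM of each marker list as a percent of the carrier mean, on a log scale, in the 4 libraries (orange sorafenib, blue carrier, circles replicate 1, triangles replicate 2). The resident and general macrophage lists lie at 51.6% and 60.5% in sorafenib replicate 1 and at 23.7% and 20.7% in replicate 2, the dendritic list lies near 100% in all libraries, and the oncofetal list lies at 0.253% in sorafenib replicate 2.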

How the data were processed

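Poly(A) RNA of liver tumors was sequenced single-end from stranded TruSeq libraries, per the labels' protocols. GRCm38 is the build in the submitters' processing notes, which list Subread 1.6.3, STAR 2.6.1c and edgeR 3.22.5 without saying what each was used for. The authors deposited CPM per gene, 1 table per library. Every value was a whole multiple of 1 read's worth, so whole reads were recovered (100% of values within 0.01 of an integer).

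limma 3.58.1 (R 4.3.3) with a mean-variance trend was run on log2(CPM + 1) for the 13149 genes that reached 1 CPM in 2 or more libraries, two-sided, with Benjamini-Hochberg adjustment over all of them at 0.05. DESeq2 1.42.0 and edgeR 4.0.16 on the recovered reads, TMM and upper-quartile factors, a pseudocount of 0.25, no filter, a replicate block and leaving out each library were alternatives; the code was tested on simulated data. Levels per kb used the exons of protein-coding transcripts in GENCODE M21, which held 37607 of the 39179 identifiers.

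The labels do not say that replicates came from separate mice, so p-values measure only the spread between libraries, which may be technical. The replicates' reads were not within sampling noise of each other (chi-square divided by its degrees of freedom 40.9 in sorafenib and 9.09 in carrier), so each library counted as 1 sample. All 32 members are named, and those with full statistics are the 5 resident markers and the 6 general markers with the smallest p; other lists give the 2 genes with the smallest p and genes without reads, except for some genes that are not reported here. Members, lists and tests were chosen with earlier results of these data known.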

Additional observations from a re-analysis of the deposited data

How the results depend on the processing

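The direction and the side of the threshold were kept in 277 of the 330 values of single markers under 11 alternatives; 42 passed the threshold, and 11 reversed. Leaving out single libraries gave 0 to 5149 genes called over all genes (398 without sorafenib replicate 2, 5149 without sorafenib replicate 1) and 0 to 26 markers, against 0 with all libraries; DESeq2 called 499 genes and 3 markers. The log2 fold changes of 6 markers were positive without sorafenib replicate 2 and lowest without sorafenib replicate 1: −2.16 to 0.13 for Mpeg1, −1.46 to 0.094 for Fcgr1, −0.96 to 0.18 for Ptprc, −2.44 to 0.46 for Cybb, −1.35 to 0.0015 for Cd163 and −0.62 to 0.56 for Ccr2. Ccr2 was also positive with TMM factors (0.15), with upper-quartile factors (0.11), without carrier replicate 1 (0.095), by edgeR (0.29) and by DESeq2 (0.31). The median difference of resident minus general markers was −0.06; it was −0.32 with no filter, where Ms4a7 and Cx3cr1 entered, and −0.30 to 0.21 when single libraries were left out, positive without sorafenib replicate 2 (0.05) and without carrier replicate 2 (0.21). The difference in the resident share of reads, −0.16 percentage points, ranged from −3.09 to 2.77 when single libraries were left out, and was positive without sorafenib replicate 1 (2.59) and without carrier replicate 2 (2.77). The cause was not tested. The count of markers below both carriers was 22 with TMM factors (background 29.2%) and with upper-quartile factors (background 31.8%), and 23 with no filter. Leaving out a library loosens this rule, because fewer libraries are compared. The count was then 22 without sorafenib replicate 2 (background 47.1%) and 30 without sorafenib replicate 1 (background 62.4%). It was 24 without carrier replicate 1 and 24 without carrier replicate 2. For these 2 and for no filter, the share over all genes was not computed. The labels give replicates only a number, and deviations of same-numbered libraries from their group means correlated at 0.15 over 13149 genes. With a replicate block, limma called 0 genes and 0 markers. Depth limits 9 markers that had under 10 reads in at least 1 library. Trem2 had no adjusted p in DESeq2 and was counted there as keeping its side of the threshold.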

Other observations

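The transcription factor gene Spic, which red pulp macrophages and Kupffer cells use and which was named after its values were seen, was at 0.246 and 0 CPM in sorafenib tumors, against 1.35 and 1.89 CPM in carrier tumors, from few reads, and passed the filter only through the carrier libraries. The collagen gene Col1a1 was at 21.6 and 9.53 CPM in sorafenib tumors, against 57.3 and 88.3 CPM in carrier tumors, and Col1a2 was at 25.3 and 12.8 CPM in sorafenib tumors, against 54.4 and 77.9 CPM in carrier tumors, so that neither overlapped. The endothelial receptor gene Lyve1 was at 3.44 and 2.67 CPM in sorafenib tumors, against 12.6 and 11.1 CPM in carrier tumors, while the endothelial gene Clec4g, also named after its values were seen, was at 27.5 and 12.2 CPM in sorafenib tumors, against 25.8 and 27.5 CPM in carrier tumors, and overlapped. None of these passed the limma threshold, and their adjusted p was 0.24 to 0.48.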
